A study of Mus musculus with 54 samples.

Results

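The organic ion and drug transporters of the mouse kidney were taken as all genes whose symbol begins with Slc22a, Slco, Slc47a, Abcb, Abcc or Abcg. This rule used gene names and no measured value. It found 69 members among the 33090 gene symbols of the deposited tables: 26 Slc22a, 15 Slco, 2 Slc47a, 10 Abcb, 10 Abcc and 6 Abcg genes. Of these, 63 were listed in at least 1 bulk and 1 10x Genomics library, and 31 were listed in each of the 39 10x libraries. *Abcc12*, *Abcg4*, *Slc22a13b-ps*, *Slc22a16* and *Slco6b1* were listed in bulk libraries only, and *Slc22a20* in 10x libraries only. The annotation marks *Slc22a13b-ps* and *Slco6b1* as pseudogenes.

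The study compared ways of preparing adult mouse kidney for RNA sequencing, in 18 groups of 3 libraries. The first experiment used 19-week-old C57BL/6J males of a single litter from the AFAPIL.1DEL line: their kidneys were dissociated on ice with a cold-active protease or at 37 °C, and the suspensions were profiled fresh, after cryopreservation or after 3 months in methanol by 10x chemistry v2, and as bulk RNA after rRNA depletion. The second used 18-week-old Balb/c males of a single litter: fresh cold-dissociated cells and nuclei by chemistry v2, and bulk RNA of intact kidney after rRNA depletion. The third used 15-week-old wild-type Balb/c females that were former breeders: fresh and cryopreserved cold-dissociated cells and nuclei by chemistry v3, and poly(A) bulk RNA of intact kidney and of the cold suspension. Nuclei came from flash-frozen kidneys and were purified by sorting after 3 washes at 500g, by sorting after 1 wash at 2000g, or over sucrose. Below, "C57BL/6J cells", "male cells" and "female cells" are the fresh cold-dissociated libraries, and "male nuclei" and "female nuclei" are those sorted after 3 washes at 500g. Sex, age, chemistry and experiment changed together between the Balb/c males and females, and strain, age and experiment between C57BL/6J and Balb/c males, so these cannot be told apart.

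These transporters move organic anions, organic cations, conjugates and drugs between blood and urine. In the proximal tubule, many uptake carriers of the Slc22a and Slco families bring substrates in across the basolateral membrane. Others, such as *Slc22a12*, work at the brush border. Exchangers of the Slc47a family and ATP-driven pumps of the Abcb, Abcc and Abcg families send substrates out, mostly across the brush border. The tubule is divided into segments S1, S2 and S3 from the glomerulus downwards, and both segment and sex are known to shape expression of the families in rodents. Not all members are drug carriers: *Abcb10* is mitochondrial, *Abcc8* and *Abcc9* are regulatory subunits of ATP-sensitive potassium channels, and *Abcg1* exports cholesterol.

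The 39 10x libraries held 175959 barcodes, from 782 to 9308 each, and 983522 to 35170947 unique molecular identifiers (UMIs). The 15 bulk libraries held 2326998 to 31093949 assigned reads. Barcodes were clustered without the 69 members, and clusters were named only from marker lists of other genes, so the class names do not rest on the transporters. Proximal tubule-like (PT-like) barcodes numbered 7340 of 11851 in C57BL/6J cells, 4867 of 9153 in male cells, 12746 of 23849 in male nuclei, 8733 of 16947 in female cells and 9761 of 23256 in female nuclei. The 10 markers of S1 were each higher in the S1-like than in the S3-like class in all 5 groups. The same marker lists named these classes, so this is not an independent check. The S3-like classes were less alike: the S3 markers *Bcat1* and *Serpina1f* were at 0 in those of male cells, and *Cyp7b1* was at 0 in those of female cells. Barcode sequences found in more than 1 library made up 6.21% of barcodes over the 18 10x libraries of C57BL/6J kidneys (fresh, cryopreserved and methanol-fixed), and 0.518% to 2.26% within the other sets of cells or nuclei. Levels are given as counts-per-million of UMIs (CPM) or reads-per-million (RPM) of the class or library total without mitochondrial genes. The authors removed genes detected in fewer than 10 cells, and the 10x tables held 0 to 852 genes in 1 to 9 barcodes of a library against 1028 to 2585 in 10 to 19, so a 0 over a whole library is not evidence of no transcript.

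Which of the transporters belong to the proximal tubule was asked by setting the PT-like sum of each library against the sum of its other named barcodes. A member was called higher or lower at an adjusted p below 0.05 in edgeR's quasi-likelihood test together with an absolute log2 fold change of at least 1. Errors of fold changes are standard errors (SE) derived from that test, with 3 libraries a group. In C57BL/6J cells, 22 of 35 tested members were higher in PT-like cells and 6 were lower, whereas 16.9% and 24.8% of all genes tested were. Female cells had 28 higher and 8 lower of 43 (all genes 14.6% and 24.9%), and male cells had 19 and 1 of 23 (16.5% and 20.3%). Male nuclei had 26 and 6 of 49 (10.6% and 17.1%), and female nuclei had 28 and 8 of 52 (14.4% and 22.2%). The median log2 fold change of the members was 2.52 in C57BL/6J cells, 3.53 in male cells, 2.83 in female cells, 1.16 in male nuclei and 1.73 in female nuclei, while the median of all genes lay between -0.09 and 0.00 in these comparisons. With library totals in place of TMM scaling, log2 fold changes dropped by a median of 0.18 to 0.51, and no called member changed its sign. Of 22 members tested in all 5, 15 were higher in all 5, among them *Slc22a2*, *Slc22a5*, *Slc22a6*, *Slc22a7*, *Slc22a8*, *Slc22a12*, *Slc22a18*, *Slc22a22*, *Slc22a28*, *Slc22a30*, *Slc47a1*, *Slco1a6*, *Abcc2* and *Abcg2*. The share of all genes higher in all 5 is not given, so this count has no background beside it. *Abcc1*, *Abcg1*, *Slco2b1* and *Slco4a1* were lower in the 4 groups where they were tested, although *Slco2b1* was not called in male nuclei at clustering resolution 1 (0.12, edgeR adjusted p = 0.762), and *Abcc3*, *Slco1a4* and *Slco3a1* were higher in some and lower in others. A further 15 members had too few counts for a test in any of the 5 groups.

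**Figure D1:**
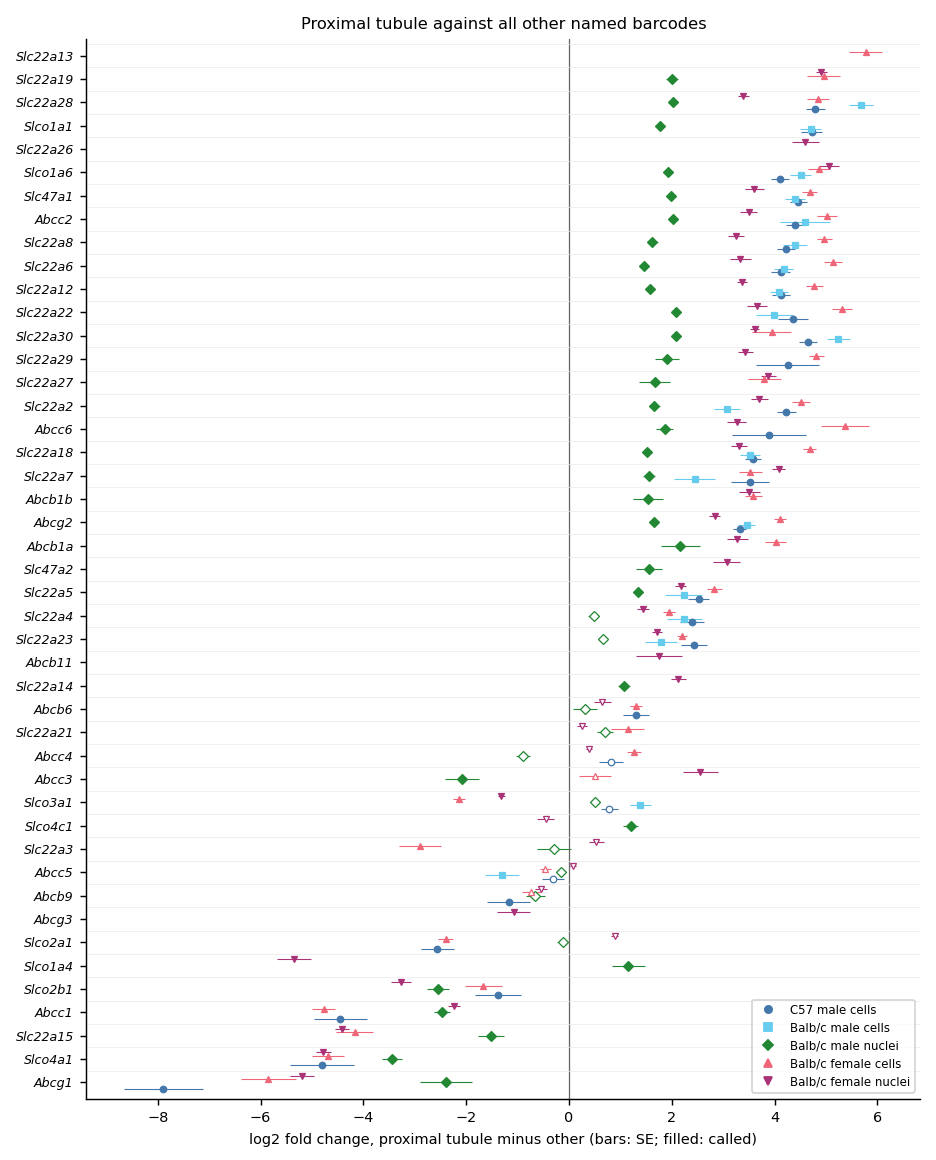
Log2 fold change of PT-like against all other named barcodes (x axis) for transporters called in at least 1 of 5 groups (y axis), with 1 point per group, bars for the SE and filled points for calls. The members called higher in all 5 groups lie right of 0 throughout, and the fitted value of *Abcg1* in C57BL/6J cells, where PT-like cells held no UMI of it, depends on the prior count of the fit.

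Organic anion carriers were among these. *Slc22a6*, the classical para-aminohippurate carrier OAT1 (chr19:8618039-8628299, plus strand of GRCm38 in GENCODE vM21), measured 355, 318 and 247 CPM in PT-like C57BL/6J cells of the 3 libraries and 20.6, 18.9 and 29.8 in the other cells. Its log2 fold change was 4.12 ± 0.18, with no overlap between the sums. *Slc22a8*, which encodes OAT3 (chr19:8591254-8611835, plus strand), measured 298, 324 and 252 in PT-like cells and 15.4, 19.4 and 26.6 elsewhere, a log2 fold change of 4.22 ± 0.17. For both genes the lowest PT-like sum lay well above the highest sum of other cells. *Slc22a7*, the carrier OAT2, was present at a far lower level of 16.5, 18.5 and 10.1 against 3.67, 0.841 and 1.38 (log2 fold change 3.52 ± 0.37).

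*Slc22a6* and *Slc22a8* lie head to tail on chromosome 19 with 6203 bases between their annotated ends, and the 250 bases before each RefSeq gene start (GRCm38.p6, plus strand) are shown because these neighbours shared their PT-like enrichment yet differed by segment and by sex in the comparisons that follow. Capitals mark GTTAAT, a partial site of the tubule factor HNF1.
Slc22a6, chr19:8617746-8617995: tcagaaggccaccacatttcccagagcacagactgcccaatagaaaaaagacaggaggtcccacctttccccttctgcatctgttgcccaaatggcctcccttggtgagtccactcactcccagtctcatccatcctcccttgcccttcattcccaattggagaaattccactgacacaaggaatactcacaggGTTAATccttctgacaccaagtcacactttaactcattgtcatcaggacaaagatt
Slc22a8, chr19:8592932-8593181: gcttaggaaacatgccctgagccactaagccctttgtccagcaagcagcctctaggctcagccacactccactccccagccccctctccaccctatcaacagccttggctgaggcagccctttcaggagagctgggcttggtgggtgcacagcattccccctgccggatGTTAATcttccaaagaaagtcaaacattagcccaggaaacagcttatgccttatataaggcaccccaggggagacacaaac
The match began 56 bases before the gene start in *Slc22a6* and 81 bases before it in *Slc22a8*. The window of *Slc22a6* lay outside annotated genes, while that of *Slc22a8* lay within the longer GENCODE span of the same gene, in an intron of its coding transcripts. GTTAAT, searched on both strands, occurred in 6.43% of 32851 mouse promoter windows of this length and in 4 of 64 windows of 54 members, those of *Slc22a6*, *Slc22a8*, *Slc22a29* and *Slco1b2*. A match is a description of the letters and not a bound site.

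*Slc22a12*, which encodes the urate reabsorption carrier URAT1 of the brush border (chr19:6535845-6543032, minus strand), was the member with the highest mean in PT-like C57BL/6J cells, at 691, 632 and 685 CPM against 32.3, 45.4 and 78.4 elsewhere (log2 fold change 4.12 ± 0.18, edgeR adjusted p = 3.05e-15). Per unit of transcript length it also led all members in bulk RNA: its level in transcripts-per-million (TPM) was 2557 ± 158 (SD, n = 3) in cold-dissociated C57BL/6J suspensions, 2379 ± 253 in intact male and 1434 ± 249 in intact female kidney, and 1145 ± 140 in female suspensions. The next members in C57BL/6J suspensions were *Slc22a18* at 1223 ± 72.3 and *Slc47a1* at 974 ± 35.9 TPM. *Slc22a13*, a urate and nicotinate carrier, was seen in PT-like female cells at 13.3, 17.7 and 21.8 CPM against 0.479, 0.687 and 0 in the rest (log2 fold change 5.77 ± 0.32).

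Organic cations are taken up by carriers such as *Slc22a2* and leave by *Slc47a1*, the proton-coupled exchanger MATE1 (chr11:61343401-61378345, minus strand). The uptake and the efflux step of the cation route were both higher in PT-like cells. *Slc22a2* stood at 106, 87.6 and 90.6 CPM in PT-like C57BL/6J cells and at 10.3, 4.63 and 6.42 in the rest, and *Slc47a1* at 198, 222 and 174 and 13.9, 11.4 and 11.5. Their log2 fold changes were 4.23 ± 0.19 and 4.46 ± 0.16. *Slc47a1* led all members in PT-like female nuclei, with 1207, 1413 and 1367 CPM. The carnitine and ergothioneine carriers *Slc22a5* and *Slc22a4* were less enriched, with log2 fold changes of 2.52 ± 0.20 and 2.39 ± 0.24 in C57BL/6J cells.

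Of the ATP-driven pumps, *Abcg2* (BCRP, chr6:58584523-58695676, plus strand) stood highest in PT-like C57BL/6J cells, at 406, 419 and 451 CPM against 44.8, 59.7 and 66.9. Its log2 fold change of 3.32 ± 0.13 was smaller than that of *Abcc2*, the apical conjugate pump MRP2, which stood at 115, 114 and 108 against 8.08, 7.15 and 6.42 (4.40 ± 0.18). *Abcg2* was also the leading member of the endothelial-like class, at 159 ± 15.1 (SD, n = 3) in C57BL/6J cells and at 192 in male cells. Among the Slco carriers, *Slco1a1* (chr6:141907282-141946962, minus strand) measured 201, 138 and 193 in PT-like C57BL/6J cells against 5.14, 5.05 and 15.6, and it was the leading member in PT-like male cells with 722, 539.7 and 746 against 24.5, 21.8 and 67.1. *Slco1a6* measured 213, 239 and 233 in C57BL/6J cells, *Slc22a28* 227, 231 and 249.5 and *Slc22a30* 248, 257 and 222. *Slc22a18*, like these last a member without a settled substrate, was higher in each library than *Slco1a6* in any, at 455, 380.5 and 321.

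Transporter RNA was also counted in barcodes of other classes. For members with at least 100 CPM in PT-like barcodes that were called higher there, the T cell-like class of C57BL/6J cells held a median of 10.4% of the PT-like level (4.63% to 14.2% over 12 members), that of male cells 7.2% (0% to 19.2% over 11) and that of female cells 2.61% (0.804% to 4.20% over 8). The endothelial-like class held medians of 8.51% (3.32% to 36.4%), 12.3% (3.18% to 48.0%) and 6.27% (2.85% to 30.1%) in these cells. In male nuclei the endothelial-like class held a median of 58.1% (47.0% to 69.6% over 16 members) and the thick ascending limb-like class 29.8%. In female nuclei these medians were 24.5% and 7.82% over 18 members. Each of the 15 members called higher in all 5 groups had its smallest fold change in male nuclei. *Slc22a30*, for example, stood at 2178, 2348 and 2089 CPM in PT-like male nuclei and at 516, 648 and 617 in the other nuclei (2.07 ± 0.10). The part of free RNA in each level was not tested.

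Members that were highest outside the PT-like class were spread over 8 to 11 other classes a group. In C57BL/6J cells these were 21 of the 39 members with at least 30 UMIs, with no more than 3 in 1 class. In male nuclei 13 of 52 were highest in the 69 macrophage-like nuclei, against 3 of 54 in female nuclei. The share of all genes with that highest class is not given beside these counts, and so few nuclei leave the highest class uncertain. In cells, *Slco2b1*, a carrier of steroid sulfates and other anions, stood at 49.4 ± 6.79 (SD, n = 3) CPM in the macrophage-like class of C57BL/6J cells, where the next class had a mean of 4.01, and at 85.4 ± 26.6 in that of female cells. In female nuclei, however, its highest class was the fibroblast-like one, at 686 ± 65.2, with 167 ± 17.8 in macrophage-like nuclei. The female cell libraries had no fibroblast-like class to compare. Fibroblast-like, macrophage-like and mural-like classes were small, so these levels rest on 603, 157 and 171 female nuclei.

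Vessel walls and glomeruli carried another set. The extraneuronal monoamine carrier *Slc22a3* stood at 130.3 ± 23.0 in the mural-like class of female cells and at 3.87 in the next class, and in female nuclei the mural-like class was again highest, at 62.2 ± 30.3. *Abcc9*, the channel subunit of smooth muscle and pericytes, stood at 478 ± 22.7 in mural-like female nuclei, above the 173 ± 54.3 of fibroblast-like nuclei in all 3 libraries. The prostaglandin carrier *Slco2a1* was highest in podocyte-like C57BL/6J cells at 119.6 ± 8.53. In female cells it was highest in the endothelial-like class at 223 ± 39.9 and close to that in the mural-like class at 220.3, an order that did not hold in all 3 libraries. *Slco1a4* and *Slc22a15* had their highest level in endothelial-like female nuclei, at 60.4 ± 11.2 and 63.7 ± 2.48. *Slco1a4* was, however, called higher in the PT-like class of male nuclei.

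Other members led or were highest in the distal tubule and urinary tract classes. *Slco4a1*, a thyroid hormone carrier, was highest in thin limb-like barcodes, at 65.3 ± 14.3 in female cells and 139 ± 16.0 in female nuclei. *Slco4c1* was highest in the principal cell-like class of the collecting duct in both, at 17.5 ± 3.82 and 37.9 ± 16.2. In male nuclei, however, *Slco4c1* was called higher in the PT-like class. *Slc22a23*, an orphan, was the leading member of the distal convoluted tubule-like class, at 104 ± 0.619 in female cells and 563 ± 68.5 in female nuclei, where the PT-like mean was 572. It was called higher in the PT-like class of both female cells and female nuclei, so it was not particular to the distal class. *Slc22a17*, a lipocalin receptor, led the principal cell-like class of C57BL/6J cells at 82.8 ± 11.9. The urothelial-like class, 128 female nuclei, held the nucleotide and conjugate pump *Abcc4* at 853 ± 126, the basolateral conjugate pump *Abcc3* at 493 ± 31.6 and *Abcc8* at 80.5 ± 30.9, each above all other classes in all 3 libraries. The lysosomal peptide pump *Abcb9* was highest in T cell-like cells, at 32.8 ± 5.08 in C57BL/6J and 41.3 ± 9.64 in female cells.

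Members lower in the PT-like class mostly stood at a few CPM there. *Abcg1* had no UMI in PT-like C57BL/6J cells of any library and 13.9, 12.2 and 16.5 CPM in the others, which puts the rest at least 41.5-fold higher when 3 UMIs over the group are taken as the floor. *Abcc1*, the ubiquitous conjugate pump MRP1, stood at 1.18, 0 and 0.326 in PT-like cells against 12.5, 19.4 and 11.9 (log2 fold change -4.45 ± 0.52). *Slco4a1* stood at 2.08, 2.20 and 1.19 in PT-like female nuclei against 62.1, 56.6 and 57.4 (-4.78 ± 0.14). *Slco3a1* was called in opposite directions, higher in PT-like male cells at 73.2, 53.4 and 56.9 against 37.5, 24.9 and 33.6 (1.39 ± 0.20) and lower in PT-like female cells at 6.95, 8.60 and 7.56 against 46.3, 49.6 and 50.4 (-2.14 ± 0.11). The difference between these groups was not tested here.

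Genes that work with the transporters, a list of 28 dicarboxylate and peptide carriers, scaffold proteins, the sodium pump and transcription factors, were mostly PT-like as well. In C57BL/6J cells 15 of 21 tested partners were higher and 5 lower. The counts were 11 and 4 of 16 in male cells, 13 and 4 of 25 in male nuclei, 16 and 4 of 24 in female cells, and 15 and 4 of 26 in female nuclei. These shares may be read beside those of all genes given above, but the partners, unlike the members, were not left out of the clustering. Their counts by class are therefore not independent of it.

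The segments of the proximal tubule were compared by setting S3-like against S1-like barcodes of the same libraries, 1680 against 2147 in C57BL/6J cells, 1614 against 1342 in male cells, 2233 against 3886 in male nuclei, 234 against 1349 in female cells and 2278 against 3332 in female nuclei. In female nuclei, 14 of 46 tested members were higher in S3-like nuclei and 8 were lower (all genes 12.6% and 10.4%). Male nuclei had 14 higher and 6 lower of 42 (8.29% and 7.69%), and female cells had 11 and 5 of 30 (7.95% and 10.5%). Male cells had 9 and 1 of 20 (4.5% and 4.09%), or 6 in all without library 2 and 5 by DESeq2, and C57BL/6J cells had 4 and 3 of 27 (4.32% and 5.92%). Of 17 members tested in all 5 groups, *Slc22a7* and *Slco3a1* were higher in S3-like barcodes in all 5 and *Slc22a23* was lower in all 5. *Slc22a6*, also tested in all 5, and *Slc22a22*, tested in 4, were called in both directions. The matching shares of all genes over the 5 groups are not given. Of the 28 partners, 3 were higher and 1 lower of 17 tested in C57BL/6J cells, 0 and 0 of 12 in male cells, 3 and 5 of 21 in male nuclei, 5 and 1 of 17 in female cells, and 7 and 4 of 23 in female nuclei. These partners could also shape the segment classes, because the clustering did not leave them out.

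**Figure D2:**
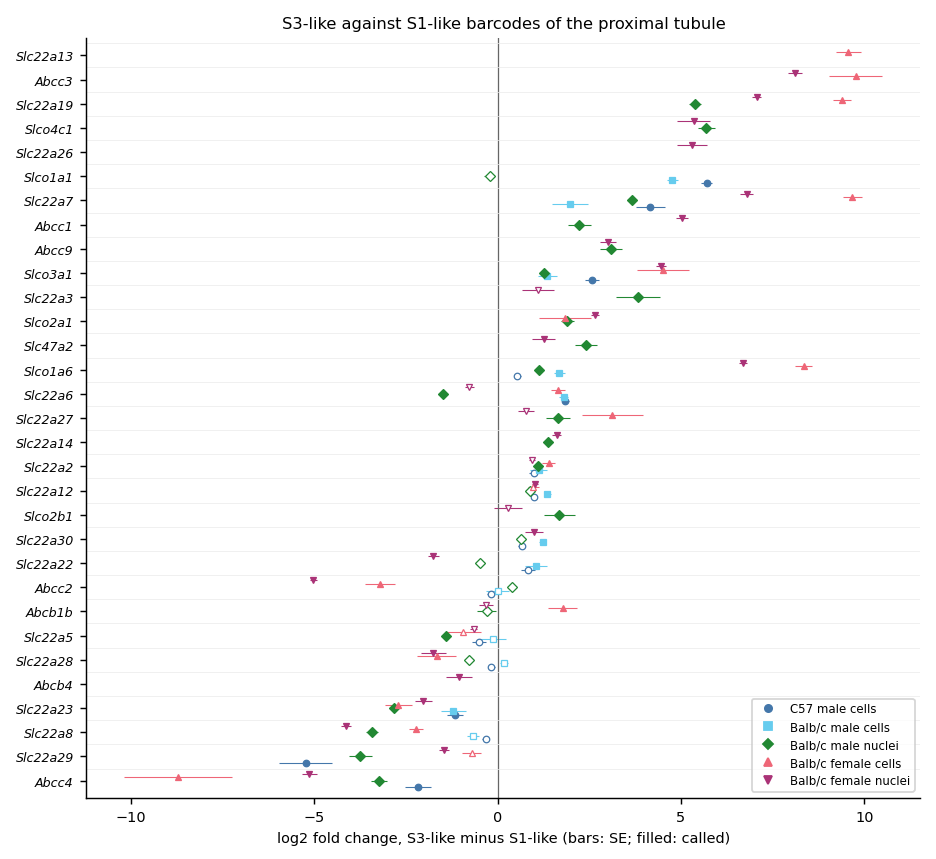
Log2 fold change of S3-like against S1-like barcodes (x axis) for transporters called in at least 1 of 5 groups (y axis), with 1 point per group, bars for the SE and filled points for calls. *Slc22a7* and *Slco3a1* lie right of 0 and *Slc22a23* left of 0 in all groups, and the fitted values of *Abcc3* and *Abcc4* in female cells, each at 0 in 1 class, depend on the prior count of the fit.

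*Slc22a7* (chr17:46432183-46438457, minus strand) had its largest difference in female cells, where S3-like cells held 727, 706 and 882 CPM and S1-like cells 0.574, 1.22 and 0.669. The log2 fold change was 9.66 ± 0.26 there, 6.79 ± 0.18 in female nuclei, 4.16 ± 0.39 in C57BL/6J cells, 3.67 ± 0.14 in male nuclei and 1.97 ± 0.49 in male cells. The values in C57BL/6J cells were 37.9, 52.4 and 26.6 against 1.26, 0.804 and 3.95. No library of one class reached the other class in these groups, but in male cells the call was lost without library 2, at a log2 fold change of 1.40 (edgeR adjusted p = 0.127). *Slco3a1*, a prostaglandin and thyroid hormone carrier (chr7:74275419-74554780, minus strand), stood at 115, 127 and 85.9 in S3-like and 21.4, 17.7 and 16.6 in S1-like C57BL/6J cells (2.58 ± 0.19), and at 168, 157 and 176 and 8.31, 9.19 and 6.10 in female nuclei (4.46 ± 0.13).

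In the females, several members had wide gaps between the segments. *Slco1a6* (chr6:142085761-142208521, minus strand) measured 2661, 3129 and 2902 CPM in S3-like female nuclei and 32.0, 27.8 and 27.3 in S1-like ones (6.69 ± 0.12), and in female cells 701, 852 and 629 against 1.15, 2.76 and 3.35. *Slc22a19*, an anion carrier of the chromosome 19 run (chr19:7673061-7711310, minus strand), measured 1418, 1257 and 1062 against 13.4, 7.91 and 7.93 in female nuclei (7.06 ± 0.13) and 289.6, 384 and 481 against 7.40, 6.60 and 12.5 in male nuclei (5.38 ± 0.17). In each case the lowest S3-like library lay above the highest S1-like one. In males the gap of *Slco1a6* was smaller: S3-like male nuclei held 1043, 1053 and 870.0 and S1-like male nuclei 393, 486 and 448 (1.13 ± 0.09). *Slc22a13* measured 303, 441 and 386 in S3-like female cells and 0, 0.306 and 1.34 in S1-like ones (9.56 ± 0.35). *Abcc3* was at 0 in S1-like female cells of all libraries and 77.9, 90.2 and 79.8 in S3-like ones, at least 179.1-fold higher against a floor of 3 UMIs over the group. In female nuclei *Abcc3* measured 472, 149 and 191 against 1.07, 1.07 and 0.814, with library 1 far above the other two in S3-like nuclei. The same library stood apart for *Slc22a26*, at 67.7, 7.71 and 10.8 in S3-like nuclei against 0.639, 0.855 and 0.610.

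*Slco1a1* gave different pictures in cells and nuclei of males. S3-like C57BL/6J cells held 484, 407 and 761 and S1-like ones 6.29, 5.63 and 19 (5.70 ± 0.16), and in male cells the values were 1491, 1193 and 1521 and 33.4, 40.1 and 84.1 (4.77 ± 0.15). In male nuclei they were 64.2, 70.7 and 65.3 and 72.8, 79.2 and 74.1, a log2 fold change of -0.21 ± 0.15 that was not called. Both classes of male nuclei lay well below the PT-like mean of those nuclei, in which *Slco1a1* measured 349.9, 404 and 365, and its level in PT-like nuclei named neither S1-like nor S3-like was 637 ± 44.1 (SD, n = 3). The difference between cells and nuclei was not tested for this gene. *Slco4c1*, a cardiac glycoside and thyroid hormone carrier, measured 169, 191 and 153 in S3-like male nuclei and 3.41, 2.48 and 3.33 in S1-like ones (5.69 ± 0.23).

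Members lower in S3-like barcodes included pumps and anion carriers. *Abcc4* measured 11.6, 6.17 and 5.28 CPM in S3-like and 253, 315 and 279 in S1-like female nuclei (-5.13 ± 0.21), and it was lower in all 4 groups where it was tested. In S3-like female cells it was at 0 in all libraries while S1-like cells held 44.2, 40.7 and 48.9, at least 8.0-fold more against the floor of 3 UMIs over the group. *Abcc2* measured 13.9, 22.0 and 18.9 and 476, 717 and 653 in female nuclei (-5.02 ± 0.10), and its log2 fold change in female cells was -3.21 ± 0.41. It was not called in any of the male groups, with log2 fold changes of 0.01 ± 0.31 in male cells, -0.17 ± 0.12 in C57BL/6J cells and 0.39 ± 0.09 in male nuclei (edgeR adjusted p = 0.00019, below the fold threshold). In each of these 3 groups the S3-like and S1-like libraries overlapped, and the difference between the sexes was not tested. *Slc22a29* measured 0, 0 and 1.48 in S3-like and 21.4, 19.3 and 14.2 in S1-like C57BL/6J cells.

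The neighbours *Slc22a8* and *Slc22a6*, whose promoter windows are printed above, differed by segment, although only in female cells were they called in opposite directions. *Slc22a8* was the lower in S3-like barcodes where it was called: 13.6, 31.1 and 21.1 against 330.2, 433 and 396 in female nuclei (-4.12 ± 0.14), a log2 fold change of -3.41 ± 0.17 in male nuclei and of -2.22 ± 0.19 in female cells. It was not called in C57BL/6J cells (-0.33 ± 0.09) or in male cells (-0.67 ± 0.17). *Slc22a6* was higher in S3-like cells, at 634, 621 and 554 against 157, 182 and 164 in C57BL/6J (1.85 ± 0.09), with log2 fold changes of 1.80 ± 0.11 in male cells and 1.66 ± 0.20 in female cells. In female nuclei *Slc22a6* was not called (-0.76). In male nuclei it was instead lower, at 108, 50.5 and 58.5 against 266, 145 and 179 (-1.49 ± 0.13). Both classes of male nuclei lay below its PT-like level in those nuclei. The direction in male nuclei turned to 0.61 when clusters were drawn at a coarser resolution of 1, so that call depends on the clustering resolution.

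The strains were compared in PT-like cells of C57BL/6J and Balb/c males, both cold-dissociated and of chemistry v2. Of 28 tested members, 4 were higher in C57BL/6J and 1 was lower, while 5.19% of all genes were called, 3.17% higher and 2.02% lower. *Abcc2* measured 115, 114 and 109 CPM in C57BL/6J and 45.2, 29.6 and 39.7 in Balb/c (log2 fold change 1.70 ± 0.18, edgeR adjusted p = 1.03e-05). *Slc22a8* measured 298, 325 and 253 and 113, 151 and 164 (1.14 ± 0.16), and *Slc22a18* 455, 381 and 322 and 216, 209 and 169 (1.06 ± 0.16). The groups did not overlap for these 3 genes, although the call of *Slc22a18* was lost without C57BL/6J library 1 or Balb/c library 3. *Slc22a29* measured 10.2, 7.97 and 6.52 in C57BL/6J and was at 0 in the male Balb/c libraries, with no fold given. It was the 1 called member with a library at 0. Over whole C57BL/6J libraries it stood at 4.53 to 6.62 CPM, while 9 UMIs were 5.473, 3.497 and 6.604 CPM in the male Balb/c libraries. This call rests on 0s near the limit of the filter on barcodes, so it cannot decide whether the strains differ. *Slco1a1* was the member higher in Balb/c, at 722, 539.9 and 747 against 201, 138 and 193 in C57BL/6J (-1.79 ± 0.16). S3-like barcodes, where this gene was higher in both strains, made up 1614 of 4867 PT-like Balb/c cells and 1680 of 7340 PT-like C57BL/6J cells, and their part in the difference was not tested. *Slc22a12* (0.63) and *Slc22a30* (-0.55) had an adjusted p below 0.05 in the edgeR test and a log2 fold change below the threshold. Without C57BL/6J library 1, 3 members were called, and with 9 UMIs put in place of each 0 over a whole library, 15 were. Of the partners, 2 of 19 were called, both higher in C57BL/6J, and both had Balb/c libraries at 0 (*Nr1i2* in all 3 and *Ppara* in 2).

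Nuclei and cells of the same experiment were compared within PT-like barcodes. Intronic reads were counted in nuclei only, so a gene with long introns can gain in nuclei by the counting alone. In males, 34 of 46 tested members were higher in nuclei and 1 was lower, against 45.1% and 21.8% of all genes, but 18 of these members had at least 1 library at 0 in cells. Without genes at 0 in a whole library, 16 of 28 were higher and 1 lower, against 30.9% and 27.8% of the genes then tested. In females, 27 of 44 were higher and 7 lower, against 34.1% and 31.6% of all genes (65.6% in either direction). The median log2 fold change was 1.97 over members and 0.77 over all genes in males, and 1.75 and 0.15 in females. These fold changes are relative to TMM scaling and differ from the ratio of the CPM values. With library totals as the only scaling, an alternative chosen after the data were seen, log2 fold changes moved up by a median of 0.48 in males and 0.76 in females, the median over all genes became 1.25 and 0.91, and the members called were 36 higher and 0 lower of 46 in males (53.8% and 16.5% of all genes) and 32 and 1 of 44 in females (48.3% and 22% of all genes). The 23 members higher in nuclei in both sexes made up 67.6% of those higher in males and 85.2% of those higher in females. Several of the 23, among them *Abcc6*, *Slc22a19* and *Slc22a29*, were at 0 in all male cell libraries. They could be tested in males only through their counts in nuclei, and no matching share of all genes is given. Partners were 12 higher and 4 lower of 22 in males, where 5 of the 12 had male cell libraries at 0, and 13 and 4 of 24 in females.

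**Figure D3:**
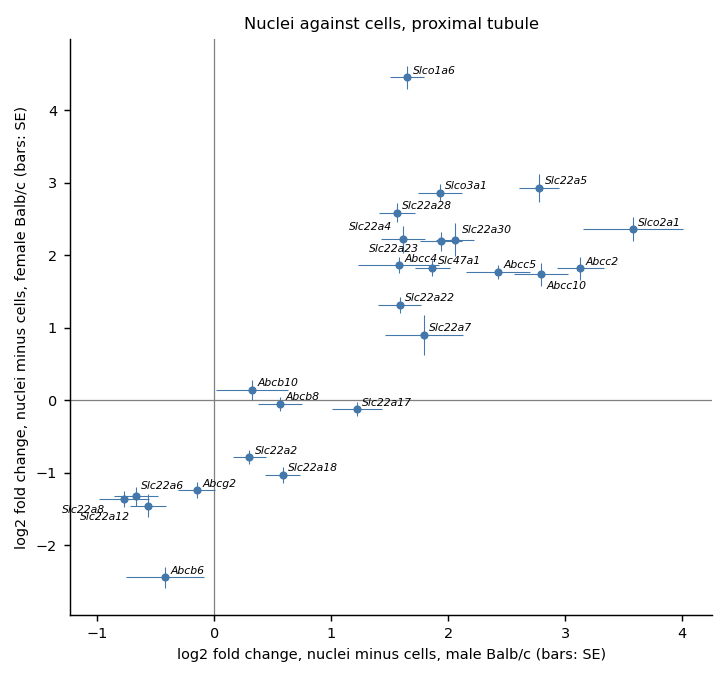
Log2 fold change of nuclei against cells in PT-like barcodes, males on the x axis and females on the y axis, for 25 transporters with no library at 0 in either comparison, with bars for the SE and TMM scaling (library totals alone move the points up by about 0.48 in males and 0.76 in females). Most points lie above 0 on both axes, *Slco1a6* lies far higher on the female axis than on the male one, and *Slco1a1* is absent because the female cell tables do not list it.

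*Slco1a6* had the largest difference in females, with 790.2, 934 and 748 CPM in nuclei and 17.3, 21.1 and 28.5 in cells (4.45 ± 0.16), against 829, 971 and 954 and 226, 194 and 216 in males (1.65 ± 0.14). The S3-like class, where this gene was concentrated in females, made up 2278 of 9761 PT-like nuclei and 234 of 8733 PT-like cells in that sex. The carnitine carrier *Slc22a5* was higher in nuclei of both sexes, at 229.9, 384 and 413 against 25.7, 26.5 and 27.0 in females (2.93 ± 0.19) and with a log2 fold change of 2.78 ± 0.17 in males. *Slc47a1* measured 1228, 1439 and 1389.5 against 240.0, 229 and 207 in females and 1237, 1268 and 1208 against 249, 211 and 283 in males, with close log2 fold changes of 1.83 ± 0.11 and 1.86 ± 0.15. *Abcc2* measured 526, 429.7 and 395 against 45.1, 29.6 and 39.7 in males (3.13 ± 0.20). Several low members, among them *Slc22a19*, *Slc22a14* and *Abcc6*, were seen in male nuclei and at 0 in male cells, where the filter on barcodes applied.

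Fewer members were lower in nuclei, relative to TMM scaling. In females these included *Abcb6*, a porphyrin transporter, at 6.47, 7.70 and 7.75 against 23.3, 26.4 and 20 (-2.44 ± 0.15), and prominent PT-like carriers and pumps. *Slc22a12* (-1.45 ± 0.16), *Slc22a8* (-1.36 ± 0.11), *Slc22a6* (-1.33 ± 0.13) and *Abcg2* (-1.24 ± 0.11) were lower in every nuclei library than in any cell library. *Slc22a18* (-1.03 ± 0.11) overlapped between groups and lost its call without nuclei library 1 (-0.87) and without cell library 1 or 2 (-0.99 in both). In males the lower member was *Slco1a1*, at 349.9, 404 and 365 in nuclei and 722, 539.7 and 746 in cells (-1.30 ± 0.15). Scaled by library totals alone, *Abcb6* was still called (-1.68), and the other 5 named here in females and *Slco1a1* in males kept their direction but missed the fold threshold, at log2 fold changes of -0.27 (*Slc22a18*) to -0.70 (*Slc22a12*) and of -0.83.

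Between the ways of purifying female nuclei few members were called. Sorting after 1 wash at 2000g differed from 3 washes at 500g for 1 of 50 tested members, with 3.54% of all genes called and 3.28% called higher, and sucrose purification for 1 of 50, with 3.77% called and 3.12% called higher. Both comparisons used the same 3 libraries at 500g. The member was *Slco1c1*, a thyroid hormone carrier of very low level, at 1.92, 1.13 and 1.12 CPM after 2000g, 1.33, 1.18 and 0.854 after sucrose and 0.252, 0.305 and 0.796 after 500g. Its log2 fold changes were 1.63 ± 0.47 (edgeR adjusted p = 0.0398) and 1.32 ± 0.45 (edgeR adjusted p = 0.0469), and each call was lost without any of 5 of the 6 libraries in turn, at log2 fold changes of 1.30 to 1.77 and 1.05 to 1.47. At any fold, 6 of 50 members at 2000g and 13 of 50 for sucrose had an edgeR adjusted p below 0.05. No share of all genes at that p alone is given. Median log2 fold changes of members were -0.189 at 2000g and -0.296 for sucrose, against 0.005 and 0.008 over all genes.

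What dissociation changes in transporter RNA was asked in female bulk RNA, by setting intact kidney against the cold suspension. Of 49 tested members, 11 were called and all 11 were higher in intact kidney, where 5.34% of all genes were called, 3.51% higher and 1.83% lower. DESeq2 also called 11. In bulk RNA, fewer cells of a type and less RNA per cell cannot be told apart. Of the partners, 3 of 26 were called, all higher.

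**Figure D4:**
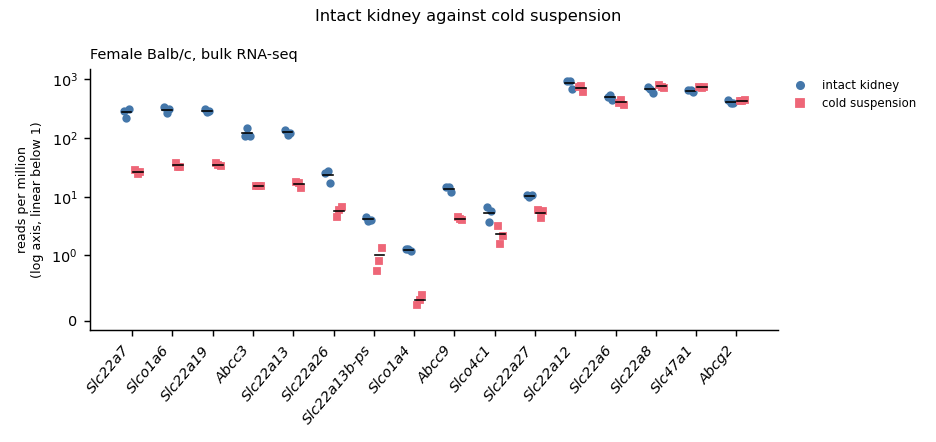
Bulk RPM (y axis, logarithmic above 1 and linear below it) in the 3 intact and 3 cold-dissociated female kidney libraries (points, with a line at each mean) for the 11 called members and 5 prominent members that were not called (x axis). The intact libraries of *Slc22a7* sit between 222 and 307 and those of the suspension between 24.9 and 28.1, whereas both groups of *Slc22a8* and *Abcg2* overlap and *Slc47a1* lies slightly lower in the intact libraries.

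*Slc22a7* measured 292, 222 and 307 RPM in intact kidney and 28.1, 24.9 and 26.3 in suspensions, 10.6-fold (3.41 ± 0.12, edgeR adjusted p = 1.7e-07). *Slco1a6* measured 333, 265 and 318 and 38.0, 32.6 and 32.3 (3.19 ± 0.10), and *Slc22a19* 311, 274 and 286 and 36.9, 34.1 and 33.6 (3.10 ± 0.07). *Abcc3* measured 109.5, 146 and 109.7 and 15.5, 15.1 and 15.1 (3.04 ± 0.11), and *Slc22a13* 137, 114 and 124 and 18.2, 16.9 and 14.0 (2.98 ± 0.11). All intact libraries lay above all suspensions for these 5 genes, and the same 5 had the largest S3-like log2 fold changes among the members tested in female cells. *Slc22a26* (2.08), *Slc22a13b-ps* (2.08), *Slco1a4* (2.00), *Abcc9* (1.74), *Slco4c1* (1.28) and *Slc22a27* (1.01) were the others called. Reads of *Slc22a13* and its pseudogene may be shared, and the annotated span of *Slc22a14* covers both.

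Of the 11 members higher in intact kidney, 8 were tested between S3-like and S1-like female nuclei, where 7 were higher in S3-like nuclei (63.6% of the 11 and 50.0% of the 14 called there) and 0 lower. Among all genes higher in intact kidney, 313 were tested between the segments, of which 265 (84.7%) were higher in S3-like nuclei and 5 lower, against 11.5% and 10.6% of the 11589 genes tested in both comparisons. Markers of S3 moved the same way: 8 of the 10 were above the suspension in all intact libraries, with a median ratio of intact to suspension of 3.03 (0.703 to 10.6), while 9 of the 10 S1 markers were below it, with a median ratio of 0.672 (0.535 to 0.909). For the 11 general PT markers the median ratio was 0.933, with 4 above and 5 below. The part of segment content in the transporter differences was not tested. Some prominent members were not called: *Slc22a8* measured 737, 694 and 585 and 798, 755 and 724, *Slc47a1* 653, 654 and 613 and 734, 703 and 745, and *Abcg2* 441, 391 and 398 and 424, 422 and 439.8. Their log2 fold changes were -0.13 ± 0.09, -0.15 ± 0.06 and -0.03 ± 0.07. *Slc22a6* was slightly higher in intact kidney, at 500.2, 535 and 441 against 402, 446 and 369 (0.32 ± 0.09, edgeR adjusted p = 0.0356), below the fold threshold and with overlap.

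Warm against cold dissociation of C57BL/6J kidney gave no called member in bulk RNA, 0 of 47 tested with 2.29% of all genes called (1.54% higher and 0.753% lower). DESeq2 also called 0. In the edgeR test 14 members had an unadjusted p below 0.05, but the share of all genes at that p is not given. Some members had an adjusted p below 0.05 and a log2 fold change below the threshold. *Abcc1* measured 65.1, 82.9 and 73.9 RPM in warm and 50.3, 53.1 and 40.9 in cold suspensions (0.61 ± 0.11, edgeR adjusted p = 0.00352). *Slco4a1* (0.86) was also among these and higher after warm dissociation, and *Abcc3* (-0.62), *Slc22a23* (-0.38) and *Abcg2* (-0.28) were lower. In PT-like cells, 1 of 31 tested members was called, with 1.39% of all genes called. That was *Slc22a23*, at 19.8, 17.1 and 14.5 CPM after warm and 23.6, 38.9 and 46.9 after cold dissociation (-1.04 ± 0.23, edgeR adjusted p = 0.0239). The call was lost without any of 4 of the 6 libraries in turn (-0.82 to -1.13). PT-like warm-dissociated cells were 2801 S3-like to 1518 S1-like, against 1680 to 2147 in cold-dissociated ones. Of the 4 members called higher in S3-like than in S1-like cold-dissociated cells, *Slc22a6* had a log2 fold change of 0.58 ± 0.13 between warm and cold dissociation (edgeR adjusted p = 0.0279), *Slc22a7* one of 0.44 ± 0.25, *Slco1a1* one of 0.01 ± 0.21 and *Slco3a1* one of 0.01 ± 0.22. Of the 3 called lower there, *Slc22a23* was the member above, *Abcc4* had -0.75 ± 0.30 and *Slc22a29* -0.21 ± 0.26. The part of segment content in the call was not tested.

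Storage was compared in the same way. After 3 months in methanol, 0 of 30 tested members were called in PT-like cold-dissociated C57BL/6J cells, with 5.56% of all genes called. With the suspension number as a block, which paired these libraries, 0 of 30 were called and 6.41% of all genes, and 14 members had an adjusted p below 0.05, all lower after methanol, up to a log2 fold change of -0.96 (*Slco1a1*). In the fit without the block, DESeq2 also called 0, and 14 had an unadjusted p below 0.05 in the edgeR test. Below the fold threshold, 8 had an adjusted p below 0.05, and all 8 were lower after methanol. No share of all genes at an adjusted or unadjusted p alone is given beside these counts. The median log2 fold change without the block was -0.35 over tested members and -0.04 over all genes. *Slco1a1* measured 96.8, 73.1 and 91.2 CPM after methanol and 201, 138 and 193 fresh (-0.97 ± 0.15, edgeR adjusted p = 0.000983). *Slc22a12* measured 401, 361 and 425 and 691, 632 and 685 (-0.70 ± 0.10). The others were *Slc22a30* (-0.75), *Abcc2* (-0.54), *Slc22a2* (-0.46), *Slco1a6* (-0.45), *Slc22a6* (-0.44) and *Slc22a28* (-0.40). S3-like barcodes made up 1340 and S1-like ones 1350 of 8102 PT-like cells after methanol, against 1680 and 2147 of 7340 fresh ones, and the part of segment content was not tested. The strain, warm and methanol comparisons all used the fresh cold-dissociated C57BL/6J libraries, so a library that is high there moves all of them.

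Cryopreserved libraries are given as levels only, because few PT-like cells remained: 13 of 3519 barcodes after cold and 20 of 3483 after warm dissociation in C57BL/6J, and 251 of 4274 in females. The sum of all members was 278.3 to 281.1 CPM in cold-dissociated cryopreserved C57BL/6J libraries and 2546.5 to 2943.7 in the fresh ones. The warm-dissociated ones held 281.4 to 329.7 cryopreserved and 3057 to 3278 fresh. In females it was 696 to 951 after cryopreservation and 2227 to 2675 fresh. No cryopreserved library reached a fresh one in either strain. The sums do not cover the same members, because members removed by the filter on barcodes add nothing to them. Of 45 listed members, 16 to 20 were above 0 in cold-dissociated cryopreserved C57BL/6J libraries and 37 to 43 in the fresh ones. The female tables listed 33 to 35 members after cryopreservation and 46 fresh. The part of this in the sums was not tested. Male nuclei held 8041 to 8192 CPM and female nuclei 5214 to 5686, with introns counted. Bulk RNA of the cold C57BL/6J suspensions held 8854 to 9442 RPM, which are reads over whole transcripts and cannot be compared in size with UMIs.

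Balb/c males and females were compared in intact bulk RNA, in PT-like nuclei and in PT-like cells. Sex stood together with age, breeding history, experiment, 10x chemistry and, in bulk, with rRNA depletion against poly(A) selection and reads of 51 against 60 bases, so these differences cannot be told apart. In bulk, 9 of 50 tested members were higher in males and 11 lower (13.1% and 7.05% of all genes). In nuclei 13 of 51 were higher and 10 lower (19.6% and 9.51%), and in cells 5 of 34 were higher and 13 lower (7.19% and 10.9%). In cells 6 of the 13 lower members had male libraries at 0 (*Abcb1a*, *Abcc6*, *Slc22a19*, *Slc22a27* and *Slc22a29* in all 3 and *Abcb1b* in 2), and without genes at 0 in a whole library 5 of 27 were higher and 7 lower (8.18% and 7% of the genes then tested). S3-like barcodes made up 1614 of 4867 PT-like male cells and 234 of 8733 female ones, and the part of this in the differences in cells was not tested. Of 34 members tested in all 3, *Slc22a28*, *Slc22a30* and *Slco3a1* were higher in males in all, *Abcb1a*, *Abcb1b*, *Abcc4*, *Slc22a8*, *Slc22a19*, *Slc22a27* and *Slc22a29* were lower in all (in cells 5 of these 7 with male libraries at 0), and 0 members were called in both directions. Bulk and nuclei shared 7 calls higher in males (77.8% of those in bulk, 53.8% of those in nuclei) and 8 lower ones (72.7% and 80.0%). Shares of all genes called in all 3 assays, or shared by bulk and nuclei, are not given beside these counts. Of the partners, 1 was higher and 2 lower of 25 in bulk, 3 and 6 of 26 in nuclei, and 2 and 3 of 21 in cells, where 2 of the 3 lower ones had male libraries at 0 (*Nr1i2* in all 3 and *Ppara* in 2).

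**Figure D5:**
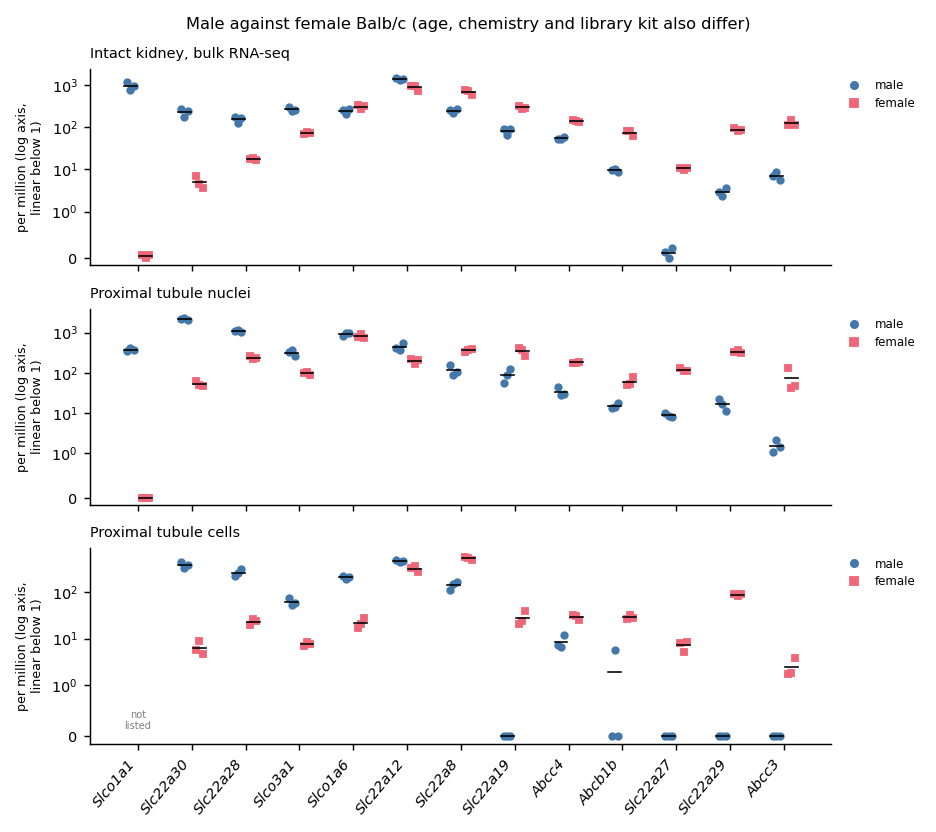
Levels per library (y axis, RPM in bulk and CPM in nuclei and cells, logarithmic above 1 and linear below it) of 13 named members (x axis) in the 3 male and 3 female Balb/c libraries of each panel, with a line at each mean. The male libraries of *Slc22a30*, *Slc22a28* and *Slco3a1* lie above the female ones in all 3 panels and those of *Slc22a8*, *Slc22a27* and *Slc22a29* below them, and *Slco1a1* has no point in the cells panel because the female cell tables do not list it.

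*Slco1a1* was the most divided member. It measured 1157, 739 and 934 RPM in intact male kidney and 0.0659, 0 and 0.0704 in intact female kidney, where the 3 female libraries held 4 reads in all. In PT-like nuclei it measured 349.9, 404 and 365 in males and was at 0 in all 3 female libraries, and the value in male cells was given above. *Slc22a30* (chr19:8335371-8405111, minus strand) measured 269, 176 and 244 in male and 6.98, 4.52 and 3.66 in female bulk RNA (5.64 ± 0.26). It measured 2179, 2349 and 2089 and 62.3, 49.0 and 47.1 in nuclei (5.27 ± 0.17), and 439.9, 334 and 380.4 and 5.53, 8.87 and 4.60 in cells (5.88 ± 0.18). These are folds of 50.0, 38.5 and 59.1, and in none of the 3 assays did the sexes overlap. *Slc22a28* (3.26 ± 0.13 in bulk) and *Slco3a1* (2.02 ± 0.11) were also higher in males, the latter at 298, 239 and 253 against 68.5, 75.5 and 70.7. *Slco4c1* was higher in males in bulk (2.72 ± 0.21) and nuclei (3.14 ± 0.17).

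The members lower in males included carriers and pumps. *Slc22a29* (chr19:8160165-8218900, minus strand) measured 2.88, 2.34 and 3.62 in male and 94.4, 79.3 and 86.0 in female bulk RNA (-4.70 ± 0.17), with log2 fold changes of -4.41 ± 0.22 in nuclei and no male value above 0 in cells. *Slc22a27* measured 0.137, 0 and 0.226 and 10.8, 9.82 and 10.8 in bulk (-5.98 ± 0.38). In male cells it was at 0, and with 9 UMIs put in place of that 0 its log2 fold change in cells was 0.23, so its direction in cells rests on the filter. The conjugate pump *Abcc3* (chr11:94343295-94392997, minus strand) measured 7, 8.42 and 5.43 and 109.6, 146 and 109.7 (-4.04 ± 0.18). In nuclei *Abcc3* was again lower in males, at 1.09, 2.11 and 1.44 against 132, 42.2 and 46.3 (-5.71 ± 0.65). Of the pair of genes that encode P-glycoprotein, *Abcb1b* measured 9.60, 10.3 and 8.59 against 81.0, 78.5 and 62.0 in bulk (-2.84 ± 0.16) and *Abcb1a* had a log2 fold change of -1.77 ± 0.22. *Abcb1a* and *Abcb1b* are near copies, as are the Slc22a genes of chromosome 19 and the Slco1a genes of chromosome 6, so the division of reads among such copies is uncertain.

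The basolateral anion carriers went opposite ways in bulk. *Slc22a8* measured 251, 209.6 and 265 in males and 738, 695 and 585 in females (-1.34 ± 0.13), and it was lower in males in nuclei (-1.74 ± 0.20) and cells (-1.86 ± 0.13) too. *Slc22a6* measured 1281, 817 and 1029.6 and 500.5, 535 and 441 in bulk (1.22 ± 0.16), and without male library 1 its log2 fold change was 0.99, below the threshold. In nuclei it measured 429.7, 276 and 274 in males and 168, 209.7 and 216 in females, which was not called. *Slco1a6* was called in cells, at 226, 194 and 216 in males and 16.9, 20.7 and 27.9 in females (3.34 ± 0.15), where S3-like female cells held 701, 852 and 629 and S1-like ones 1.15, 2.76 and 3.35, while in bulk it measured 253, 206 and 264 and 333, 265 and 318 (-0.20 ± 0.13) and was not called.

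The positions of these genes were set beside their directions. On chromosome 19 of GRCm38, 8 Slc22a genes follow each other without another member between them, from *Slc22a19* (chr19:7673061-7711310, minus strand) through *Slc22a26*, *Slc22a27*, *Slc22a28*, *Slc22a29* and *Slc22a30* to *Slc22a8* and *Slc22a6*. In intact bulk RNA their log2 fold changes of males against females, in this order, were -1.68, 0.82, -5.98, 3.26, -4.70, 5.64, -1.34 and 1.22, of which that of *Slc22a26* was not called and that of *Slc22a6* lost its call without male library 1. *Slc22a28* and *Slc22a30*, higher in males, thus flank *Slc22a29*, which was lower. The segment comparison did not follow the same order: in female nuclei the log2 fold changes of S3-like against S1-like were 7.06, 5.30, 0.77, -1.75, -1.46, 1.01, -4.12 and -0.76. On chromosome 6, the neighbours *Slco1a4* (1.64 ± 0.27) and *Slco1a1* were both higher in males, and the next gene, *Slco1a6* (chr6:142085761-142208521, minus strand), had a log2 fold change of -0.20 ± 0.13 between the sexes in bulk.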

How the data were processed

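Per the labels and methods, the authors trimmed bulk reads with Trim Galore, removed ribosomal and low-complexity reads with TagDust2, aligned the rest with STAR 2.6.1a to GRCm38, marked duplicates with Picard and counted reads per gene with featureCounts, and processed 10x reads with Cell Ranger 2.1.1, EmptyDrops, Scater and Seurat 2. Cell libraries were counted over exons, and nuclei over exons and introns. The deposited values were raw counts, UMIs per gene and barcode or bulk reads per gene, without normalization. Whether counting used strand or left out marked duplicates is not given in the sources used here. Genes detected in fewer than 10 cells were removed, yet 36 of the 39 10x tables held some genes in 1 to 9 barcodes. In C57BL/6J cold-dissociated library 1, 9 UMIs were 2.29 counts-per-million (CPM).

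Mitochondrial genes were dropped. Barcodes were clustered per experiment and kind (2000 variable genes without the members, 30 components, 20 neighbours, Leiden resolution 2, Python 3.11.15, scikit-learn 1.9.0, leidenalg 0.10.2). A cluster was named "-like" from at least 3 markers at 1.5-fold in 10% of its barcodes. Simulated doublets marked 0.8% per 1000 barcodes, which were kept and removed in an alternative. Counts were summed per library and class and tested with edgeR 4.0.16 (R 4.3.3): quasi-likelihood F test, TMM, filterByExpr, Benjamini-Hochberg over all genes of a comparison, with the library as a block within a group. Of the 2 cell comparisons with suspension numbers in the column names, methanol against fresh paired the samples (correlations 0.18, 0.12 and 0.35) and warm against cold did not. Log2 changes of 1.5 or 2 were planted in simulated counts of 3 comparisons: S3-like against S1-like C57BL/6J cells, sucrose against 500g nuclei, and intact kidney against suspension. Of the changed genes 97% to 100% were recovered, with 3 to 6 false calls. Smaller changes and the other comparisons, among them those of male cells, were not simulated. Standard errors were the log2 fold change over the square root of the F statistic, with dispersion moderated over genes. They are not the spread of 1 gene between libraries, and the floor of 3 counts covers counting error only. Per the methods, the 3 libraries of a group came from kidneys of 3 mice.

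Members, partners and marker lists were chosen with earlier results of these data known, and the naming limits for clusters were set after the data were seen. Named members are 48 anchors, called members (up to 10 a direction), members listed in some experiments only and the leading member of each class. Alternatives were DESeq2 1.42.0, RLE size factors, no filter, resolution 1, doublets removed, genes not listed counted as 0, no block, and each library left out. Alternatives added after the data were seen scaled by library totals without TMM, dropped genes at 0 in a library, gave them 9 UMIs, or blocked on the suspension number. Coordinates are of GRCm38, from GENCODE vM21 or RefSeq GRCm38.p6. Some members are not reported here by name.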

Additional observations from a re-analysis of the deposited data

Results flagged for a closer look

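In 2 contrasts the difference between groups was itself tested, as an interaction term in edgeR. For nuclei against cells in PT-like barcodes, 9 of 28 members and 24.2% of all 9140 genes differed between males and females. *Slco1a6* differed most, by -3.07 ± 0.21 (SE, male minus female, log2 scale, edgeR adjusted p = 1.06e-08), from log2 fold changes of 1.65 in males and 4.45 in females, each higher in nuclei in all 3 libraries of both sexes. Others included *Abcb6*, which differed by 1.76 ± 0.31 (edgeR adjusted p = 0.000193), *Slc22a18* by 1.35 ± 0.19, *Slc22a17* by 1.07 ± 0.21 and *Abcc2* by 1.05 ± 0.26, each with the higher value in males. *Slc22a28* differed by -1.30 ± 0.19 and *Slco3a1* by -1.20 ± 0.24, with the higher value in females. These differences are relative to TMM scaling. Library totals alone moved the log2 fold changes up by a median of 0.48 in males and 0.76 in females, and the interaction was not refitted with them. The sexes also differed in chemistry and age, and their S3-like shares of PT-like barcodes differed between nuclei and cells. The part of these in the differences was not tested.

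For S3-like against S1-like barcodes, 1 of 25 members and 1.2% of 6592 genes differed between C57BL/6J and male Balb/c cells. That member was *Slco1a6*, by -1.19 ± 0.19 (C57BL/6J minus Balb/c, edgeR adjusted p = 4.74e-06), with log2 fold changes of 0.53 and 1.69. The S3-like classes of these groups also differed in their markers.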

How the results depend on the processing

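Among values of single called members (at most 10 a direction in a comparison) recomputed under an alternative, 2833 kept their direction and side of the threshold, 83 fell short of it and 4 turned. Among recounts of called members, 240 stayed within 1.5 times the main count and 33 did not. Over all tested members, RLE size factors kept 374 of 376 calls and the fit without a library block 226 of 227, both adding 0, and counting unlisted genes as 0 kept 100 of 100 and added 8. The block on the suspension number changed no call, with 1 member called in warm PT-like cells and 0 after methanol. No paired analysis was run for the other comparisons between groups because their labels and columns carry no shared numbers. Whether their libraries pair by order was not checked. The cause of the changes that follow was not tested, except that leaving out genes at 0 tests fewer genes and leaving out a library uses fewer samples.

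DESeq2 called 5 members in S3-like against S1-like male cells, 0 for nuclei at 2000g and 0 for sucrose. Without a filter, 3 members were called at 2000g, 0 for sucrose, 1 in warm bulk RNA and 1 after methanol. With doublets removed, sucrose gave 0. With library totals in place of TMM, 355 of 376 calls were kept and 15 added, 2 members were called in warm PT-like cells and 1 after methanol, *Slc22a18* missed the fold threshold between strains (0.96), *Slco2a1* missed in S3-like female cells (1.68, edgeR adjusted p = 0.052), and 0 of the 376 called members turned. With genes at 0 over a library left out, 17 members differed between male nuclei and cells, and with 9 UMIs put in their place 15 differed between strains. Without 1 library each, the counts were 6 to 10 for S3-like male cells, 3 to 6 for strains, 0 to 2 at 2000g, 0 to 1 for sucrose, 0 to 1 in warm bulk RNA, 0 to 3 in warm PT-like cells and 0 to 1 after methanol. At resolution 1, *Slco2b1* turned to 0.12 (PT-like male nuclei, edgeR adjusted p = 0.762) and *Slc22a6* to 0.61 (S3-like male nuclei, edgeR adjusted p = 1.43e-08). With 9 UMIs in place of 0, 7 of 118 called members turned, 5 of them between male nuclei and cells, and *Slc22a27* turned to 0.23 and *Abcc6* to 0.64 between male and female cells. Members near the 10-barcode limit of a 10x library cannot be compared at this depth.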
